A study of Mus musculus with 6 samples.

Results

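The receptors for the Fc part of immunoglobulin G (IgG) were followed as 6 transcripts: the activating receptors Fcgr1, Fcgr3 and Fcgr4, the inhibitory receptor Fcgr2b, the shared signalling chain Fcer1g, and Fcgrt, the heavy chain of the neonatal Fc receptor. They were taken by gene name, and each stood on 1 of the 53774 named lines of the table. All 6 were among the 10920 genes tested, those whose mean reached 1 FPKM (fragments or reads per kilobase of gene, scaled to library depth). The cells were macrophages sorted for CD45 and F4/80 out of mouse skeletal muscle, 3 days after an injection of barium chloride, a salt that kills muscle fibres and is followed by regeneration. Every mouse, controls included, had the genotype Cx3cr1-CreER, Manffl/fl, an inducible recombinase together with Manf flanked by recombination sites. Tamoxifen, which turns the recombinase on, was the treatment of 3 libraries and oil that of the other 3. Recombination is limited to cells in which the Cx3cr1 promoter is or was active. No library used here came from mice that had tamoxifen without the recombinase, so an effect of the drug and one of the deletion cannot be told apart. Ages are not in the labels.

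Fc receptors let macrophages bind and engulf particles coated with antibody. Fcgr1 encodes the high-affinity IgG receptor, known to be induced by interferon gamma, and Fcgr3 and Fcgr4 encode activating receptors of low and intermediate affinity. All of these signal through the common gamma chain, the product of Fcer1g, whose activation motif (ITAM) is phosphorylated by Src family kinases and then binds the kinase Syk. Fcgr2b carries an inhibitory motif (ITIM) in its own tail, which recruits the phosphatase SHIP1, encoded by Inpp5d, and it sets a threshold for the activating receptors. The neonatal Fc receptor pairs with beta-2-microglobulin (B2m), binds IgG in acidic endosomes and returns it to the surface, which spares IgG from the lysosome.

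On the GRCm38.p6 genome Fcgr2b (chromosome 1, 170958617 to 170976547, minus strand), Fcgr4 (171018920 to 171029761, plus strand), Fcgr3 (171051174 to 171064935, minus strand) and Fcer1g (171229572 to 171234365, minus strand) lie on 1 chromosome. Fcgr1 lies on chromosome 3 (96282909 to 96293969, minus strand) and Fcgrt on chromosome 7 (45092990 to 45103851, minus strand). RefSeq promoter windows of this build, with 250 bases before and 50 after the transcription start, were at hand for all 6. The windows of the 4 receptors that bind IgG at the cell surface are shown because their transcripts did not move in 1 direction. Capitals mark matches, on either strand, to 2 motifs: TTCNNNGAA, the GAS element bound by STAT factors downstream of interferon gamma, and GAGGAA, a core bound by the myeloid factor PU.1. For Fcgr1, Fcgr3, Fcgr4 and Fcgr2b the windows are chr3:96293920-96294219, chr1:171059354-171059653, chr1:171018676-171018975 and chr1:170976022-170976321, each written 5′ to 3′ along the strand of its gene.
Fcgr1: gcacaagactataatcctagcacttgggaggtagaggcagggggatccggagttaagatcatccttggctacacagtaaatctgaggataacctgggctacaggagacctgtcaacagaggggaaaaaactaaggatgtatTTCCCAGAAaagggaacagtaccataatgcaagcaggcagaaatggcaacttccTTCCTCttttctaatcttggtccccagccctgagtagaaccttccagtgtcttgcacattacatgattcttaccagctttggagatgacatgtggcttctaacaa
Fcgr3: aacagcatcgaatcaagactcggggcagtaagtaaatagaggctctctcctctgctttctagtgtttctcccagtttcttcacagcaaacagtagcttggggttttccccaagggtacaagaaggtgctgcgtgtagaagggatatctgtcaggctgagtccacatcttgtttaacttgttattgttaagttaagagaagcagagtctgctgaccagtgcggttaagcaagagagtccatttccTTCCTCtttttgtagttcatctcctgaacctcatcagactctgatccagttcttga
Fcgr4: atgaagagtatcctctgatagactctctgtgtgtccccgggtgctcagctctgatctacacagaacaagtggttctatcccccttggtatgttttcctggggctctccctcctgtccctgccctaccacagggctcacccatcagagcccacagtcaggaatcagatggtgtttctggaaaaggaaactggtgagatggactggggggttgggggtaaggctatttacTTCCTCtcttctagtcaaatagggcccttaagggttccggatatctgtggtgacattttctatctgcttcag
Fcgr2b: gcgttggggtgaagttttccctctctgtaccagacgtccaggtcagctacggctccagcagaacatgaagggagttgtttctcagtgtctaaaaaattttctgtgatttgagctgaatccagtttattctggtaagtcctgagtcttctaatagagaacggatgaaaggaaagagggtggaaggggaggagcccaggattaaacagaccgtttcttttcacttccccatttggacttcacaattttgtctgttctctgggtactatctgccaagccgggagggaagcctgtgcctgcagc
The window of Fcgr1 held a GAS match that began 109 bases before the start. It was the only 1 of the 6 members with this match, which 8.47% of 27025 promoter windows held. GAGGAA, read as TTCCTC on the strand shown, began 55 bases before the start in Fcgr1, 6 before it in Fcgr3 and 22 before it in Fcgr4. It was in the windows of 3 of the 6 members and in 28.3% of all windows. In these windows no match of one motif overlapped a match of the other. The windows of Fcgr2b and Fcgr3 lie inside the annotated span of their genes, so starts further upstream are annotated for both. These are letter matches, and no binding was measured here.

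Depth, recovered from the FPKM values, was between 18120333 and 25544666 reads per library. Adgre1, the F4/80 gene, was at 329 to 384 FPKM after oil and 304 to 369 FPKM after tamoxifen, and Cd68, a lysosomal protein of macrophages, at 879 to 1289 FPKM over all libraries. Ptprc, the CD45 gene, was at 47.4 to 54.5 and 34.4 to 46.9 FPKM, the growth factor receptor Csf1r at 386 to 446 and 250.4 to 319.98 FPKM, and Cx3cr1, whose promoter drives the recombinase, at 42.7 to 51.7 and 9.82 to 31.3 FPKM, each below oil in every tamoxifen library. Manf itself, the gene to be deleted, measured 18.1, 42.5 and 37.98 FPKM in tamoxifen 1, 2 and 3, beside 29.5, 33.05 and 31.4 FPKM after oil. Its log2 fold change was -0.017 (SE 0.29, limma-trend adjusted p = 0.976), so Manf does not separate the groups and the libraries are called by their labels throughout. The first principal component held 67.7% of the variance and put the library labelled tamoxifen 1 at -6.80, with oil at -22.5 to -13.5 and tamoxifen 2 and 3 at 34.3 and 22.1. Results are therefore also given without tamoxifen 1. Over all genes limma-trend called 0 of 10920 at an adjusted p under 0.05 (0.0%), and 2723 had an unadjusted p under 0.05 (24.9%). On the tested genes whose recovered reads were whole in all libraries, limma-voom also called 0.

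Fcer1g was the most abundant of the 6 transcripts, followed by Fcgr3 and Fcgr1 in each of the 6 libraries, while Fcgrt was the lowest in each. Levels of different genes are compared here as FPKM, which is per length of all annotated exons, 5790 bases for Fcgr2b and 1256 for Fcgr4. By reads the order differed, with 8492 for Fcgr2b and 5598 for Fcgr1 in oil 1. Ratios and shares between members also rest on these lengths. The oil means were 825 ± 47.5 FPKM for Fcer1g, 323 ± 39.1 for Fcgr3, 129 ± 11.6 for Fcgr1, 73.7 ± 4.93 for Fcgr4, 69.6 ± 8.64 for Fcgr2b and 49.4 ± 8.28 for Fcgrt (mean ± SD, n = 3, as for each such pair of values). Fcgr4 and Fcgr2b changed places between libraries, Fcgr2b being higher in oil 1 and tamoxifen 3, so these neighbours did not differ beyond their spread. The reads behind the members ran from 836 (Fcgrt in tamoxifen 2) to 19470 (Fcer1g in oil 3).

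**Figure D1:**
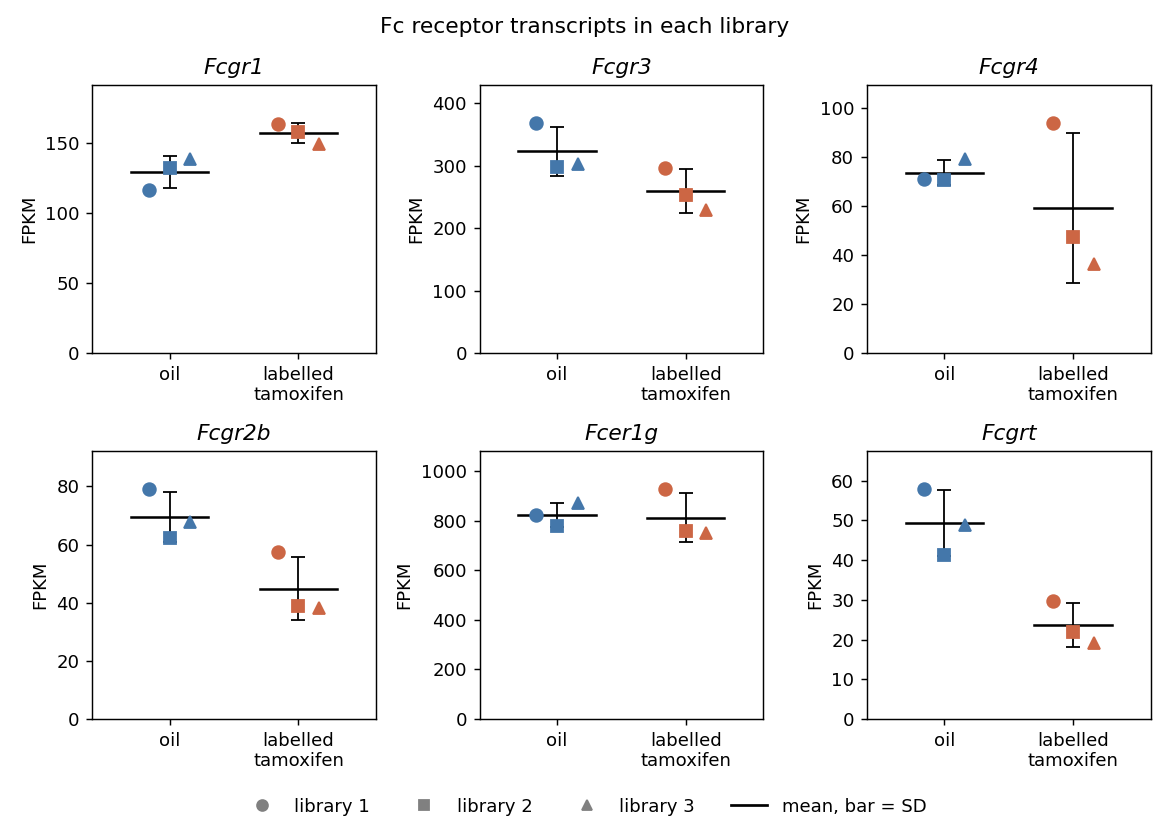
FPKM of the 6 Fc receptor transcripts (vertical axes from 0) in the 3 oil libraries and the 3 libraries labelled tamoxifen, with marker shapes for the library number, a line for the group mean and bars for the SD. Fcgr1 is higher and Fcgr3, Fcgr2b and Fcgrt are lower in every library labelled tamoxifen than in any oil library, whereas Fcgr4 is highest in tamoxifen 1 and lowest in tamoxifen 2 and 3.

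None of the 6 members passed over all genes, and 4 of them had an unadjusted p under 0.05, 1 higher (13.2% of all genes) and 3 lower (11.7%). For the same 4 the groups did not overlap, as for 29.9% of all genes: 1 member lay above all oil libraries (16.2% of all genes) and 3 lay below them (13.8%). The median log2 fold change was -0.37 over the 6 members and 0.021 over all genes tested. In RNA from a sorted population, fewer cells of a type and less RNA per cell cannot be told apart.

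Among the activating receptors, Fcgr1 was the member with higher values. It stood at 117, 133 and 139 FPKM in oil 1, 2 and 3, against 164, 158 and 149.7 FPKM in tamoxifen 1, 2 and 3. The lowest tamoxifen library was above the highest oil library, and tamoxifen 1 was the highest of all. The tamoxifen mean was 122% of the oil mean, and the log2 fold change was 0.28 (SE 0.091, limma-trend adjusted p = 0.157). Without tamoxifen 1 it was 0.25 (limma-trend adjusted p = 0.0748).

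Fcgr3, the most abundant of the IgG receptors, ran the other way, with 368, 299 and 302 FPKM after oil against 297, 254 and 228 FPKM after tamoxifen. The groups did not overlap, but tamoxifen 1 lay just below oil 2. The log2 fold change was -0.32 (SE 0.13, limma-trend adjusted p = 0.199). Without tamoxifen 1 Fcgr3 fell, with a log2 fold change of -0.42 and a limma-trend adjusted p of 0.0329.

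Fcgr4 split the libraries labelled tamoxifen. Its level was 71.1, 70.6 and 79.4 FPKM after oil, 93.8 FPKM in tamoxifen 1, and 47.4 and 36.3 FPKM in tamoxifen 2 and 3. Tamoxifen 1 was thus above every oil library and the other two below every one, a pattern that 430 of 10920 genes (3.94%) shared. The log2 fold change was -0.43 (SE 0.32, limma-trend adjusted p = 0.410). Without tamoxifen 1 Fcgr4 fell, with a log2 fold change of -0.81 (limma-trend adjusted p = 0.00654), and without tamoxifen 3 the log2 fold change was -0.14 (adjusted p = 0.802 by limma-trend).

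The inhibitory receptor Fcgr2b was lower in each library labelled tamoxifen. It stood at 79.1, 62.1 and 67.6 FPKM after oil, against 57.3, 38.9 and 38.2 FPKM in tamoxifen 1, 2 and 3. The groups did not overlap, with tamoxifen 1 closest to oil. The tamoxifen mean was 64.4% of the oil mean, and the log2 fold change was -0.64 (SE 0.17, limma-trend adjusted p = 0.151). Without tamoxifen 1 Fcgr2b fell, with a log2 fold change of -0.83 (limma-trend adjusted p = 0.00451). Fcgr2b and Fcgr3 are close relatives, and 9.58% of the 50-base stretches in the annotated transcripts of Fcgr3 also occur in Fcgr2b (2.54% of the 100-base stretches). The sources do not say how reads from such stretches were assigned, so a part of either level is uncertain. The sum of both was 447, 361 and 370.1 FPKM after oil and 354, 292 and 267 FPKM after tamoxifen. Since each gene alone lay below all oil libraries, these groups had to lie apart. The sum therefore does not settle how reads were assigned. Fcgr1, Fcgr4, Fcer1g and Fcgrt shared 0 stretches of either length with any other annotated gene.

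The signalling chain Fcer1g, which the activating receptors need to reach the surface and to signal, had overlapping groups. It stood at 824, 777 and 872 FPKM after oil, against 928, 759.6 and 752 FPKM in the 3 tamoxifen libraries. Tamoxifen 1 was again the highest library and tamoxifen 2 and 3 the lowest. The log2 fold change was -0.025 (SE 0.12, limma-trend adjusted p = 0.899), and without tamoxifen 1 it was -0.12 (limma-trend adjusted p = 0.214). Its sign changed when oil 3, tamoxifen 2 or tamoxifen 3 was left out, with log2 fold changes of 0.016, 0.020 and 0.027.

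Fcgrt had the largest fold change of the 6. It stood at 57.9, 41.3 and 48.9 FPKM after oil, against 29.8, 21.9 and 19.2 FPKM in tamoxifen 1, 2 and 3. No library labelled tamoxifen reached the lowest oil library, and the tamoxifen mean was 47.9% of the oil mean. The log2 fold change was -1.04 (SE 0.18, limma-trend adjusted p = 0.147), rank 45 of 10920 by p. Without tamoxifen 1 Fcgrt fell, with a log2 fold change of -1.21 (limma-trend adjusted p = 0.00361). Its partner B2m stood at 2985, 2987 and 3071 FPKM after oil and 3848, 2468 and 2483 FPKM after tamoxifen. B2m was therefore highest in tamoxifen 1, where Fcgrt was already below oil. The level of Fcgrt relative to B2m was 0.0194, 0.0138 and 0.0159 after oil and 0.00774, 0.00889 and 0.00774 after tamoxifen, so the ratio in tamoxifen 1 was close to that in tamoxifen 2 and 3.

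**Figure D2:**
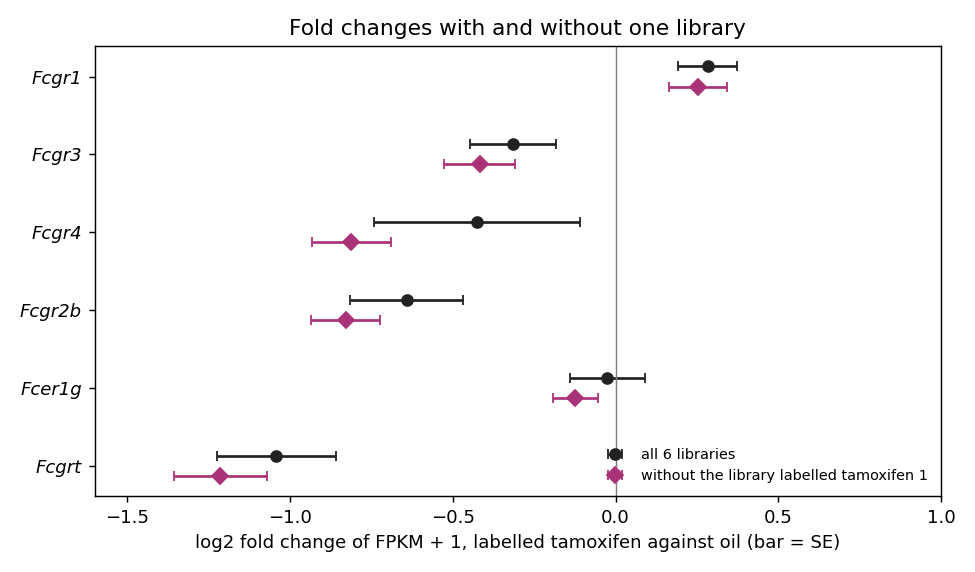
Log2 fold change of FPKM + 1 (horizontal axis, labelled tamoxifen against oil, bars for the SE) of the 6 transcripts from all 6 libraries (circles) and without the library labelled tamoxifen 1 (diamonds). Fcgr1 is to the right of 0 in both, and Fcgr4 moves most between the fits, from -0.43 to -0.81.

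Without tamoxifen 1, 4 of the 6 members were called (Fcgr3, Fcgr4, Fcgr2b and Fcgrt), as were 31.9% of all genes. All 4 fell, where 14.5% of all genes fell, and 0 rose, where 17.4% rose. Tamoxifen 2 and 3, on which these calls rest, had Manf above every oil library, and the library left out was the one with Manf below them. It was left out after its distance from the others was known, and 2 libraries then stand against 3. With library quality weights, which give less weight to libraries that fit poorly, 5 of the 6 members were called, as were 43.4% of all genes, Fcer1g being the exception. With the replicate number as a block 1 member, Fcgrt, was called (limma-trend adjusted p = 0.0483), as were 0.302% of all genes.

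The balance of activating to inhibitory receptor transcripts was higher in each library labelled tamoxifen. The summed FPKM of Fcgr1, Fcgr3 and Fcgr4 was 7.03, 8.08 and 7.71 times that of Fcgr2b after oil and 9.67, 11.8 and 10.8 times after tamoxifen. The groups did not overlap, and the difference was 0.50 on the log2 scale. Among the activating receptors only Fcgr1 was above oil in each library labelled tamoxifen, while Fcgr2b was below it. Fcer1g, whose own groups overlapped, stood at 10.4, 12.5 and 12.9 times Fcgr2b after oil and 16.2, 19.5 and 19.7 times after tamoxifen. A ratio within a library does not depend on how libraries are scaled, and since the members were chosen with earlier results known it has no test. For Fcgr1 against Fcgr2b the ratio was 1.47, 2.14 and 2.06 after oil and 2.86, 4.07 and 3.92 after tamoxifen. For Fcgr3 it was 4.66, 4.81 and 4.47 after oil and 5.18, 6.52 and 5.98 after tamoxifen. Both ratios separated the groups, with tamoxifen 1 nearest to oil. For Fcgr1 this was given in advance, since Fcgr1 lay above and Fcgr2b below all oil libraries. The Fcgr3 ratio and the summed ratio are uncertain in part, since the assignment of reads shared by Fcgr3 and Fcgr2b is not known. For Fcgr4 the ratio was 0.900, 1.14 and 1.17 after oil and 1.64, 1.22 and 0.949 after tamoxifen, with overlap. Its difference of 0.22 on the log2 scale was 0.018 without tamoxifen 1.

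**Figure D3:**
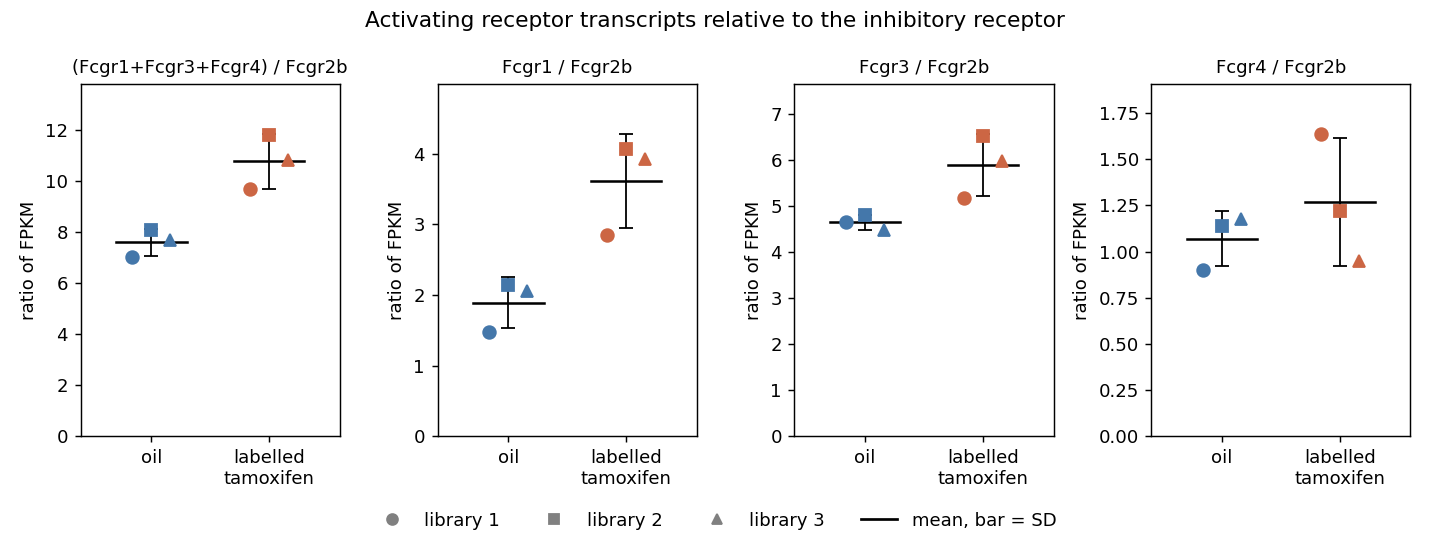
Ratio of FPKM of the activating receptors, summed and singly, to FPKM of Fcgr2b (vertical axes from 0) in each library, with the group mean and SD. The summed ratio is 7.03 to 8.08 in the oil libraries and 9.67 to 11.8 in the libraries labelled tamoxifen, and among these ratios the one of Fcgr4 has overlapping groups.

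The make-up of the 4 IgG receptors also differed. Of their summed FPKM, Fcgr1 made up 21.8 ± 3.01% after oil and 30.5 ± 3.34% after tamoxifen, and Fcgr2b 11.6 ± 0.733% and 8.54 ± 0.786%. Fcgr3 was the largest share, at 54.1 ± 3.45% and 49.96 ± 1.25%, and Fcgr4 made up 12.4 ± 1.15% and 10.95 ± 3.86%. The Fcgr3 share was lower in each library labelled tamoxifen (48.5% to 50.9%) than in any oil library (51.4% to 58.0%). The summed FPKM was 635, 564 and 588 after oil and 612, 498 and 453 after tamoxifen, so tamoxifen 1 lay within the oil range and tamoxifen 2 and 3 below it. Fcer1g stood at 1.48, 1.55 and 1.67 times the summed FPKM of its 3 receptor partners after oil and at 1.67, 1.65 and 1.81 times after tamoxifen, with overlap.

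On chromosome 1 the members have 26 other protein-coding genes within 200 kb, of which 18 were tested. Of these 0 passed over all genes, 3 had an unadjusted p under 0.05, 1 lay above and 3 below all oil libraries (24.9%, 16.2% and 13.8% of all genes), and the median log2 fold change was -0.098. Between Fcgr2b and Fcgr3 no protein-coding gene other than Fcgr4 is annotated, so the tested neighbours lie outside that stretch. Their log2 fold changes ran from -0.84 (Pcp4l1) to 0.22 (Atf6). Fcrlb, an Fc receptor-like gene beyond Fcgr2b, averaged 1.20 ± 0.257 and 1.54 ± 0.361 FPKM in the oil and tamoxifen groups. Cfap126, the nearest tested gene beyond Fcgr3, averaged 1.77 ± 0.781 and 0.840 ± 0.603 FPKM, with a log2 fold change of -0.60. These neighbours were named after their values were seen.

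**Figure D4:**
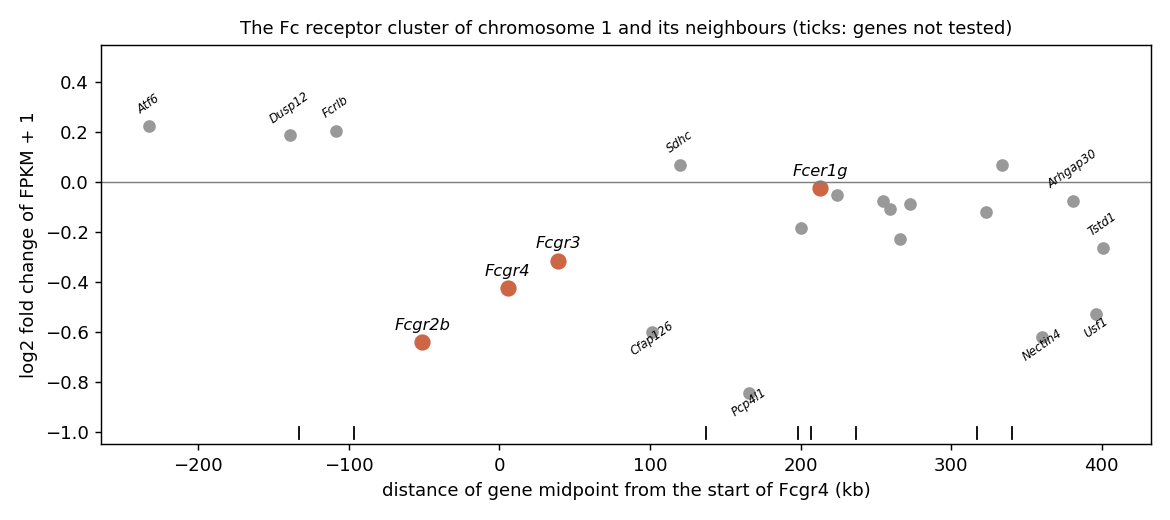
Log2 fold change of FPKM + 1 (vertical axis) of the tested protein-coding genes around the chromosome 1 cluster by distance of the gene midpoint from the start of Fcgr4 in kb (horizontal axis), with the members in orange, other genes in grey and untested genes as ticks. Fcgr2b, Fcgr4 and Fcgr3 lie below 0, at -0.64, -0.43 and -0.32, and Fcer1g lies at -0.025.

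The genes whose levels followed a member most closely over the 6 libraries were taken as the 3 with the highest Pearson correlation among the genes tested. The values include the difference between groups and are descriptions without a test. For Fcgr1 they were Ms4a4c (r = 0.995), Shisa5 (r = 0.991) and Ifitm3 (r = 0.989). Ifitm3, an interferon-inducible antiviral membrane protein, measured 314, 451 and 512 FPKM after oil and 727, 779 and 631 FPKM after tamoxifen. For Fcgr2b they were 0610040J01Rik, Arhgap18 (r = 0.998) and Syk (r = 0.998). For Fcgr3 they were Fbxo8 (r = 0.997), Laptm4a and Gm47754, for Fcgr4 Hcst (r = 0.992), Smad7 and Vhl, for Fcgrt Cmtm6 (r = 0.995), Abhd8 and Atp6v1f, and for Fcer1g Lonrf3 (r = 0.9845), Dopey1 and Arrdc1. Among the members themselves, Fcgr2b was closest to Fcgrt (r = 0.976) and Fcgr3 (r = 0.955), and Fcer1g to Fcgr4 (r = 0.862).

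The transducers downstream of the activating receptors had members on both sides. Counts at an unadjusted p under 0.05 in these lists stand beside 13.2% higher and 11.7% lower over all genes. These shares of all genes were 25.0% and 19.8% without tamoxifen 1, and 5.71% to 8.97% and 5.67% to 8.45% when 1 of the other libraries was left out. Counts that then moved by over 1.5 times are given for each list. Of 31 tested genes of the activating pathway 0 passed over all genes. At an unadjusted p under 0.05 there were 3 higher and 5 lower, and the median log2 fold change was 0.030. The count higher was 8 without tamoxifen 1, and the count lower was 2 without oil 1, tamoxifen 2 or tamoxifen 3, 3 without oil 3 and 9 without tamoxifen 1. Syk, the kinase that docks on the ITAM, stood at 43.8, 39.1 and 40.3 FPKM after oil and 36.8, 30.4 and 29.4 FPKM after tamoxifen, without overlap. Its log2 fold change was -0.35 (limma-trend adjusted p = 0.153), and without tamoxifen 1 it fell (limma-trend adjusted p = 0.00745). Vav2, a guanine nucleotide exchange factor, averaged 12.5 ± 0.648 FPKM after oil and 5.23 ± 2.81 FPKM after tamoxifen, and Lat2, a membrane adaptor, averaged 38.2 ± 1.70 and 46.6 ± 1.22 FPKM.

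On the inhibitory side, 3 of 12 tested transducers were higher and 3 lower at an unadjusted p under 0.05, with a median log2 fold change of 0.042. The lower members numbered 0 without any 1 oil library or tamoxifen 2 and 1 without tamoxifen 3, and 1 with the replicate number as a block. Dok2, an adaptor that restrains Ras signalling, averaged 24.1 ± 3.74 FPKM after oil and 54.2 ± 19.4 FPKM after tamoxifen. Ubash3b, a phosphatase that acts on Syk, averaged 9.25 ± 0.798 and 14.3 ± 2.58 FPKM, and Pag1, a membrane adaptor for the kinase Csk, averaged 5.40 ± 0.643 and 7.01 ± 0.974 FPKM. Inpp5d, the phosphatase recruited by Fcgr2b and named here for that role after its values were known, stood at 60.5, 57.9 and 64.7 FPKM after oil and 56.3, 49.1 and 53.1 FPKM after tamoxifen. Its groups did not overlap, and its log2 fold change was -0.21 (limma-trend adjusted p = 0.190).

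Other myeloid receptors with an ITIM were split, with 4 of 17 tested members higher and 3 lower at an unadjusted p under 0.05 (13.2% and 11.7% of all genes) and a median log2 fold change of -0.029. The lower members numbered 7 without tamoxifen 1. Cd33, a sialic acid receptor, averaged 15.6 ± 3.06 FPKM after oil and 6.88 ± 1.83 FPKM after tamoxifen, Ceacam1, an adhesion receptor, 4.24 ± 0.322 and 6.63 ± 1.34 FPKM, and Cd300lf 12.7 ± 1.58 and 19.7 ± 3.51 FPKM. Other receptors and adaptors of the ITAM kind had 6 of 16 tested members higher and 1 lower, with a median of 0.22. The count higher was 3 without oil 1, and the count lower was 0 without any 1 oil library, tamoxifen 2 or tamoxifen 3 and 5 without tamoxifen 1. Lilra6 averaged 2.36 ± 0.272 FPKM after oil and 10.9 ± 6.49 FPKM after tamoxifen, the signal regulatory receptor Sirpb1a 7.36 ± 0.915 and 11.1 ± 1.89 FPKM, and Clec4d, a C-type lectin that pairs with the product of Fcer1g, 67.3 ± 2.36 and 112 ± 36.2 FPKM. Lilra6 and Sirpb1a have close relatives with which reads may be shared.

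Genes of the actin machinery that closes the phagocytic cup had 11 of 25 tested members higher and 1 lower at an unadjusted p under 0.05 (13.2% and 11.7% of all genes), and 0 passed over all genes. The higher members numbered 2 without oil 1, 4 without tamoxifen 2 or tamoxifen 3, 5 without oil 3 and 17 without tamoxifen 1, and the lower members 0 without oil 1 and 2 without tamoxifen 1. The median log2 fold change was 0.16. Dock2, an activator of Rac, averaged 28.2 ± 2.10 FPKM after oil and 35.01 ± 1.09 FPKM after tamoxifen. Arpc2 and Arpc1b, subunits of the Arp2/3 complex that nucleates branched actin, averaged 349 ± 14.1 and 428 ± 23.7 FPKM and 176 ± 1.02 and 225 ± 25.4 FPKM. Without tamoxifen 1, 12 of the 25 rose and 2 fell at an adjusted p under 0.05, beside 17.4% and 14.5% of all genes.

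**Figure D5:**
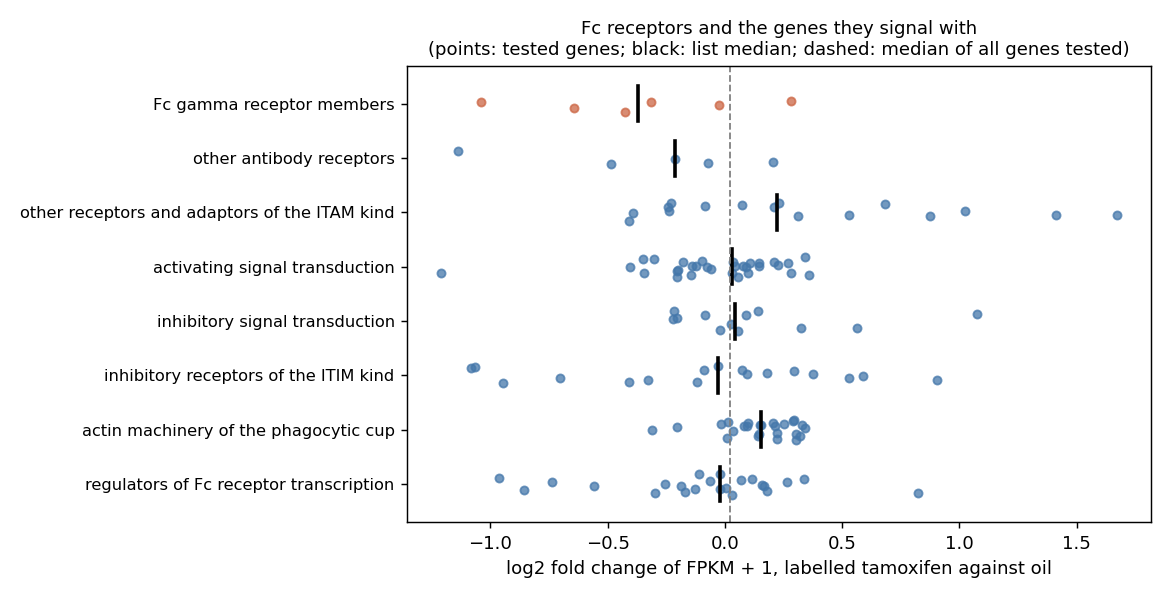
Log2 fold change of FPKM + 1 (horizontal axis, labelled tamoxifen against oil) of each tested gene in the Fc receptor set and in 7 lists of genes that act with it, with list medians in black and the median of all genes tested as a dashed line at 0.021. The members' median is -0.37, that of the actin list 0.16, and the signalling lists spread to both sides.

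Among other receptors and partners of antibody, 0 of 5 tested members were higher and 1 was lower at an unadjusted p under 0.05. This was Fcrls, an Fc receptor-like scavenger receptor, which stood at 325, 263 and 292 FPKM after oil and 239.9, 67.03 and 144 FPKM after tamoxifen. The count lower was 0 without any 1 oil library or tamoxifen 3 and 4 without tamoxifen 1, and the count higher was 1 without tamoxifen 1. Fcrl1 averaged 3.17 ± 0.427 and 2.10 ± 1.14 FPKM, and Trim21, a cytosolic antibody receptor, 4.10 ± 0.210 and 3.43 ± 0.564 FPKM. Of 23 regulators of Fc receptor transcription 1 was higher and 4 were lower at an unadjusted p under 0.05, with a median log2 fold change of -0.022. The count higher was 2 without oil 3 and 5 without tamoxifen 1, and the count lower was 1 without oil 1, oil 2 or tamoxifen 3, 2 without oil 3 or tamoxifen 2 and 9 without tamoxifen 1. C5ar1, the receptor for the complement fragment C5a, averaged 93.4 ± 15.02 FPKM after oil and 169 ± 47.1 FPKM after tamoxifen, Tgfbr1 72.8 ± 6.59 and 41.5 ± 15.8 FPKM, and Il10ra, a subunit of the interleukin-10 receptor, 75.7 ± 11.2 and 41.7 ± 22.7 FPKM. Spi1, which encodes PU.1 and is named with its values known, stood at 144, 141 and 129 FPKM after oil and 135, 139 and 133 FPKM after tamoxifen, with overlap.

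Fc receptor transcripts are also made by other cells that such a sort can hold, and the part of those cells in the results was not tested. A sort for CD45 and F4/80 is meant to remove endothelial, muscle and fibroblast cells, which lack CD45, and lymphocytes, which lack F4/80. Counts of markers above or below all oil libraries stand beside 16.2% and 13.8% of all genes. All 7 markers of Ly6C-high monocytes lay above oil, and their summed level was 359.8 to 467 FPKM in the oil group and 857 to 3021 FPKM in the tamoxifen group. Chil3 stood at 233, 252 and 139.5 FPKM after oil and 489, 2456 and 1153 FPKM after tamoxifen, and F13a1 at 58.2, 64.2 and 64.1 and 70.8, 219 and 147 FPKM. Markers of Ly6C-low monocytes, which are known for high Fcgr4, summed to 176 to 213 FPKM after oil and to 183, 139 and 134 FPKM in tamoxifen 1, 2 and 3, with 0 of 6 tested members above oil and 1 below. Nr4a1 stood at 163, 150.2 and 132 FPKM and 148, 108 and 103 FPKM, and Itgal at 28.7, 22.8 and 24.7 FPKM and 16.3, 19.4 and 16.9 FPKM. Macrophage and sort genes summed to 11183 to 12927 FPKM after oil and 9051 to 10020.2 FPKM after tamoxifen, with 4 of 9 tested members below all oil libraries and 0 above. Without tamoxifen 1, 6 of the 9 fell and 1 rose at an adjusted p under 0.05, beside 14.5% and 17.4% of all genes. The gene that rose was the mannose receptor Mrc1, at 128, 130.5 and 130.2 FPKM after oil and 111, 226 and 195 FPKM after tamoxifen. Lyz2 (lysozyme) was at 8548 to 10193 FPKM and 6774 to 7399 FPKM.

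Neutrophils carry Fcgr3, Fcgr4 and Fcer1g, and their 13 markers summed to 51.5 to 55.2 FPKM after oil and to 56.1, 336 and 105 FPKM in tamoxifen 1, 2 and 3. Without S100a8 and S100a9, left out after their values were seen, the other 11 summed to 51.2, 50.1 and 49.4 FPKM after oil and 51.3, 62.7 and 39.02 FPKM after tamoxifen. Of 7 tested neutrophil markers 2 lay above and 0 below all oil libraries. S100a8 was at 1.52 to 3.04 FPKM after oil and 4.12, 154 and 40.4 FPKM after tamoxifen, and S100a9 at 0.525 to 2.07 and 0.696, 119.9 and 25.5 FPKM. Csf3r, the granulocyte growth factor receptor, with a mean close to that of S100a9, was at 27.3 to 28.7 FPKM and 30.3, 15.2 and 14.6 FPKM and fell without tamoxifen 1 (limma-trend adjusted p = 0.00245), while the defining marker Ly6g was listed at 0 except in tamoxifen 2 (0.176 FPKM). B cells, which carry Fcgr2b, had markers that summed to 29.7 to 36.1 FPKM after oil and to 24.02, 9.24 and 11.4 FPKM after tamoxifen, with 2 of 3 tested members below all oil libraries and 1 above. Ighm stood at 26.5, 24.4 and 30.1 FPKM and 18.8, 3.98 and 7.14 FPKM, and Cd79b at 4.07, 3.81 and 4.65 FPKM and 3.78, 2.97 and 2.08 FPKM. Ighg1, Ighg2b, Ighg2c, Ighg3 and Igkc were listed at 0 in all libraries.

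Natural killer cells, which carry Fcgr3, had no marker with a mean of 1 FPKM. Their 9 markers summed to 0.806 to 1.27 FPKM after oil and 0.511 to 0.891 FPKM after tamoxifen, 3 of them were at 0 throughout, and the highest were Klrd1 (0.248 to 1.01 FPKM) and Klrb1c (0.158 to 0.552 FPKM). The 10 mast cell and basophil markers summed to 0.868 to 1.23 and 1.08 to 1.67 FPKM, with Hdc at 0.548 to 1.20 FPKM, Gata2 at 0.0363 to 0.166 FPKM, and the defining markers Fcer1a and Mcpt4 at 0 throughout. Eosinophil markers summed to 6.25 to 9.37 and 8.55 to 21.8 FPKM, with Ear2 at 5.22 to 8.66 and 7.51 to 20.6 FPKM and Ccr3 at 0.612 to 0.955 FPKM. Dendritic cell markers summed to 7.47 to 13.2 and 3.95 to 4.31 FPKM, with Cd209a at 3.41 to 6.16 and 0.697 to 2.12 FPKM and Ccr7 at 1.77 to 3.86 and 0.780 to 1.76 FPKM. Endothelial markers, of cells that also hold Fcgrt, summed to 6.66 to 8.54 and 7.09 to 8.27 FPKM, with Kdr at 1.72 to 4.05 FPKM and Pecam1 at 1.61 to 2.15 FPKM. Muscle markers summed to 5.41 to 10.7 and 2.003 to 3.78 FPKM, with Acta1 at 1.01 to 4.49 FPKM and Myog at 0.185 to 3.53 FPKM. Fibroblast markers summed to 23.6 to 25.9 and 15.9 to 38.1 FPKM, with Col3a1 at 6.16 to 14.9 FPKM and Col1a1 at 4.95 to 10.6 FPKM.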

How the data were processed

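RNA was measured in 6 libraries. Per the labels' protocols it was total RNA from the RNeasy Micro Kit, and groups and library numbers come from the titles. The authors deposited 1 table of FPKM per gene and library. The submitters' processing notes name GRCm38.p6 as the build. The aligner, the counter, its use of strand and the annotation: not given in the sources used here. Of 54183 lines, 382 without a gene name and 27 with a date in its place were set aside (0.253% to 0.289% of a library's summed FPKM), and 124 names on more than 1 line stayed out of the lists.

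FPKM multiplied by exon length (GENCODE release M21 of that build) came out as whole multiples of 1 step per library, which gave depth and reads per gene. Within a tolerance of 0.02 reads, 95.0% to 95.3% of the low values were whole.

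Tamoxifen and oil were compared by limma-trend (limma 3.58.1, R 4.3.3) on log2(FPKM + 1), two-sided, with Benjamini-Hochberg adjustment over the 10920 genes whose mean reached 1 FPKM and a threshold of 0.05. Log2 fold changes refer to FPKM + 1 and so understate low genes. The fit was also run on simulated data with independent noise in each library, so a deviation shared by a whole library was not part of that check. Promoter windows are from RefSeq.

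The members and lists were chosen with earlier results of these data known. From each pathway list the 3 members with the smallest p are named, and from each list of cell type markers the 2 with the highest mean, besides defining markers and genes marked as named with their values known. Alternatives were other pseudocounts, filters, scalings and limma settings, a block for the replicate number, and leaving out 1 library at a time. Library quality weights and limma-voom on recovered reads were added after seeing the data. No label ties a library to a mouse, so the p-values reflect spread among libraries that may be technical. Library pairs within a group differed by more than sampling noise (chi-square per degree of freedom of 9.66 or more).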

Additional observations from a re-analysis of the deposited data

How the results depend on the processing

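Fcgr1 kept a positive and Fcgr3, Fcgr4, Fcgr2b and Fcgrt a negative log2 fold change under every alternative run. Leaving out 1 library at a time gave ranges of 0.21 to 0.34 for Fcgr1, -0.42 to -0.22 for Fcgr3, -0.81 to -0.14 for Fcgr4, -0.83 to -0.54 for Fcgr2b, -1.21 to -0.91 for Fcgrt and -0.12 to 0.027 for Fcer1g, which reversed without oil 3, tamoxifen 2 or tamoxifen 3. With library quality weights Fcgr1 (0.22), Fcgr3 (-0.43), Fcgr4 (-0.88), Fcgr2b (-0.77) and Fcgrt (-1.20) passed over all genes, as did 43.4% of the genes. The cause was not tested.

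The counts of genes called higher and lower were 0 and 0 in the reported fit, and with limma-voom on the genes with whole recovered reads. They were 0 and 1 without a filter, 1 and 4 with a filter at 5 FPKM, and 2704 and 2037 with library quality weights. They ran from 0 to 1901 and from 0 to 1583 when 1 library was left out, with calls only without tamoxifen 1. With the replicate number as a block they were 11 and 22, and Fcgrt (-1.04) passed with a limma-trend adjusted p of 0.0483. The libraries share only a number: deviations of same-numbered libraries from their group means correlated at 0.261, 0.0884 and 0.0040, and 3 of 6 libraries correlated best with their own number.

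The log2 difference of the Fcgr3 to Fcgr2b ratio ran from 0.26 to 0.43 when 1 library was left out, and that of Fcgr4 from 0.018 to 0.41. Of 126 recomputed counts of pathway members at an unadjusted p under 0.05, 42 moved by over 1.5 times. With 3 libraries per group, the number of libraries limits the precision.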

Other observations

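The members on other chromosomes have neighbours of their own, named here with their values known. Within 200 kb of Fcgr1 on chromosome 3, 5 of 16 protein-coding genes were tested. Their median log2 fold change was 0.27, beside 0.28 for Fcgr1. Of these 5 neighbours 0 passed over all genes, and 4 had an unadjusted p under 0.05 (24.9% of all genes). Of the 5, 1 lay above all oil libraries (16.2%) and 1 below (13.8%). The one above was Sf3b4, a splicing factor subunit, which averaged 38.1 ± 2.98 FPKM after oil and 46.8 ± 4.31 FPKM after tamoxifen, and the one below was Mtmr11, which averaged 1.21 ± 0.0765 and 0.876 ± 0.0646 FPKM. Within 200 kb of Fcgrt on chromosome 7, 16 of 29 were tested, with a median log2 fold change of -0.11, 0 above and 4 below all oil libraries, beside the same shares. Rcn3, which lies 769 bases from Fcgrt, averaged 1.83 ± 0.118 and 1.64 ± 0.323 FPKM, with a log2 fold change of -0.11 beside -1.04 for Fcgrt.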
